A study of Mus musculus with 58 samples.

Results

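The genes described here are 8 genes used to recognise macrophages that enter the brain from the blood or live at its borders, namely *Cd5l*, *Ms4a7*, *Mrc1*, *Cd163*, *Pf4*, *Lyz2*, *F13a1* and *Ccr2*. They were chosen by name, and all 8 were found among the 15171 genes of the count table. RNA was sequenced from the cortex and hippocampus of 1 slice at the injury site, combined into 1 sample per mouse, in 58 mice of the C57BL/6 background that were operated on at 3 months of age. All mice had human *APOE3* or *APOE4* in place of both copies of mouse *Apoe* (targeted replacement), with either both copies of *Abca1* functional (written Abca1+/+ after E3 or E4) or only 1 (Abca1+/-). Injured mice (TBI) had the skull opened over the left parietal cortex and received 1 controlled cortical impact, and sham mice had the same opening without impact. Tissue was collected 14 days later, after the vessels had been flushed with buffered saline. There were 8 sham and 8 TBI mice of E3/Abca1+/+, 7 and 6 of E3/Abca1+/-, 7 and 7 of E4/Abca1+/+, and 7 and 8 of E4/Abca1+/-, with 3 or 4 mice of each sex in every group. The genotypes are carried by the whole animal, so they are not specific to macrophages. In bulk tissue a change in the number of cells and a change in RNA per cell cannot be told apart.

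Microglia are the macrophages of the brain tissue itself, while border macrophages sit around blood vessels, in the meninges and in the choroid plexus. Border macrophages are recognised by *Mrc1*, the mannose receptor, *Cd163*, the scavenger receptor for haemoglobin bound to haptoglobin, *F13a1*, the A subunit of coagulation factor XIII, *Pf4*, a chemokine shared with platelets, and *Ms4a7*, a membrane protein that resting microglia lack. Monocytes carry *Ccr2*, the receptor for the chemokine *Ccl2*, which they need to leave the bone marrow and enter inflamed tissue. *Lyz2* encodes lysozyme M, an enzyme that cleaves bacterial cell walls, and is abundant in monocytes and many macrophages. *Cd5l* encodes a secreted scavenger receptor protein known from tissue macrophages outside the brain. Reactive microglia can switch on some of these genes, *Lyz2* among them, so none of the 8 marks 1 cell type alone in injured brain.

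RefSeq promoters (build GRCm38.p6, the assembly that the build mm10 named in the labels stands for) matched all 8 genes, with 10 start sites in all. The 250 bases before the start site are printed for *Cd5l* and *Lyz2*, the genes with the largest responses to injury, and for *Mrc1* and *F13a1*, which were the most alike among the genes with small responses. All 8 are protein-coding genes, and in this build they span chr3:87357881-87371074 (*Cd5l*), chr19:11321039-11336146 (*Ms4a7*), chr2:14229414-14332023 (*Mrc1*), chr6:124304636-124330529 (*Cd163*), chr5:90772435-90773383 (*Pf4*), chr10:117277541-117282272 (*Lyz2*), chr13:36867178-37050244 (*F13a1*) and chr9:124101918-124109140 (*Ccr2*). The printed windows lie at chr3:87357631-87357880 (plus strand, *Cd5l*), chr10:117282273-117282522 (minus strand, *Lyz2*), chr2:14229164-14229413 (plus strand, *Mrc1*) and chr13:37050245-37050494 (minus strand, the first of the *F13a1* start sites). Each is written 5′ to 3′ on the strand of its gene, and capitals mark matches to GAGGAA, the core motif of the myeloid factor PU.1, on either strand.
Cd5l: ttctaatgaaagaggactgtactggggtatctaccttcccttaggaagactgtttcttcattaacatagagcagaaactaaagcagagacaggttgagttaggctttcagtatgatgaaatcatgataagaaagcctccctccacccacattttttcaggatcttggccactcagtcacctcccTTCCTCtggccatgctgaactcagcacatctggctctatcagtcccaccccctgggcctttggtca
Lyz2: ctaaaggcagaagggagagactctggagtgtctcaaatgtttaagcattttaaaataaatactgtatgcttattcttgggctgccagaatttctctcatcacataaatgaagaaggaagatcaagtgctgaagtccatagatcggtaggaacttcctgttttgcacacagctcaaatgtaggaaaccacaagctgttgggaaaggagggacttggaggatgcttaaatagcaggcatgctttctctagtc
Mrc1: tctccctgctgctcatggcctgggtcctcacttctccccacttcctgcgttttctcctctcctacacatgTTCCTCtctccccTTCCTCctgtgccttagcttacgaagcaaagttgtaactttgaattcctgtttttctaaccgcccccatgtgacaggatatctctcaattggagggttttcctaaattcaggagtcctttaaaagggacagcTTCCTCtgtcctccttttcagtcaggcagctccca
F13a1: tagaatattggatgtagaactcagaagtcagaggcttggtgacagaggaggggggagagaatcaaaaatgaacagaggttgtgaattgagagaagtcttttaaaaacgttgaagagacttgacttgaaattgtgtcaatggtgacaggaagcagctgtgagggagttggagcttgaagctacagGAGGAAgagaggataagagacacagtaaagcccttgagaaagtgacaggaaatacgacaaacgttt
The PU.1 core was found in 4 of the 8 genes, with 3 matches in *Mrc1* and 1 each in *Cd5l*, *Pf4* and *F13a1*, and 23.3% of all 32851 promoter windows of this length hold it. The single match of *Cd5l* and that of *F13a1* both lie 66 to 61 bases before the start site, on the opposite strand in *Cd5l* and on the strand of the gene in *F13a1*. The AP-1 motif TGANTCA was found once, before the second start site of *Ms4a7* (6.75% of all windows), and the C/EBP motif TTNNGCAA once, in *Pf4* (9.56% of all windows), both strands being searched. None of the 3 motifs was matched in this window of *Lyz2*, *Cd163* or *Ccr2*. The matches describe the letters only.

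Total counts per mouse ranged from 4421308 to 37877346, and the Abca1+/- libraries were deeper (median 18871446 counts, n = 28) than the Abca1+/+ libraries (median 8350020, n = 30). The genes of neurons and glia used as a check of the tissue, such as *Snap25*, summed to at least 7721 CPM (counts scaled to a common library total) in every mouse. *Abca1* had 28.9 to 42.4 CPM in the Abca1+/- sham mice and 33.3 to 60.8 CPM in the Abca1+/+ sham mice, so the groups overlapped. No pair of libraries within a group was identical (183 pairs). The second E4/Abca1+/- sham mouse stood apart from the other 28 sham mice before any comparison. It had 55.8 CPM of *Lyz2* against at most 10.3 CPM in the others, 0.977 against at most 0.228 CPM of *Cd5l*, and 1.30 against at most 0.881 CPM of *Ms4a7*. It also had the highest sham level of *Gpnmb* (62.2 CPM against at most 7.42 CPM) and of *Gfap* (673 against at most 441 CPM). Its *Mrc1*, *Cd163*, *Pf4*, *F13a1* and *Ccr2* levels were within the range of the other sham mice. Results that rest on this mouse are given with and without it, except the sizes of the interactions of genotype with injury, which are given with it only.

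The question asked first was how the 8 genes changed from sham to TBI within each genotype. *Cd5l*, *Lyz2*, *Ms4a7* and *Ccr2* rose in all 4 genotypes, by 2.21 to 8.57 on the log2 scale. *Mrc1* rose in 3 genotypes, *Pf4* in 2 and *F13a1* in 1, by 0.81 to 1.34 on the log2 scale, and *Cd163* passed the test in none. Levels are given in CPM, and differences are log2 fold changes with their standard error (SE) from edgeR's quasi-likelihood test, called at a Benjamini-Hochberg adjusted p under 0.05 over all 15171 genes.

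*Cd5l* was almost absent from sham brain and was read in every injured mouse. It had 0 counts in 17 of the 29 sham mice, and the median of all sham mice was 0 CPM. In TBI mice the lowest, median and highest values were 1.38, 4.28 and 10.5 CPM in E3/Abca1+/+, 1.25, 5.26 and 9.36 CPM in E3/Abca1+/-, 0.791, 3.71 and 18.5 CPM in E4/Abca1+/+, and 0.670, 9.10 and 21.0 CPM in E4/Abca1+/-. The highest sham values of these genotypes were 0.228, 0.0563, 0.106 and 0.977 CPM in the same order, so sham and TBI mice overlapped only in E4/Abca1+/-. The sham mice held 4, 1, 2 and 30 counts of *Cd5l* in the whole group, 24 of the 30 in the second E4/Abca1+/- sham mouse. Pooled over the group, TBI exceeded sham 88.4-fold in E3/Abca1+/+ (95% exact interval 34.2 to 326), 157-fold in E4/Abca1+/+ (43.0 to 1300.4), 739.5-fold in E3/Abca1+/- (132 to 29265) and 46.9-fold in E4/Abca1+/- (32.7 to 69.7). Without the second sham mouse the ratio in E4/Abca1+/- was 197 (90.2 to 537). These intervals cover counting error only and not the spread between mice. The fitted log2 fold changes were 6.10 (SE 0.66) in E3/Abca1+/+, 6.94 (SE 0.97) in E4/Abca1+/+, 8.57 (SE 0.74) in E3/Abca1+/- and 5.60 (SE 0.75) in E4/Abca1+/-, with adjusted p from edgeR of at most 0.000181, and at so few sham counts their size depends on the prior count of the fit. Without the second sham mouse that in E4/Abca1+/- was 7.50 (SE 0.85, adjusted p = 5.28e-06, edgeR). By log2 fold change *Cd5l* ranked between 1 and 8 from the top of all genes in the 4 genotypes.

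*Lyz2* was the most abundant of the 8 genes in both conditions. In sham mice the lowest, median and highest values were 4.64, 6.99 and 9.03 CPM in E3/Abca1+/+, 3.46, 6.29 and 8.95 CPM in E3/Abca1+/-, 5.22, 6.06 and 8.77 CPM in E4/Abca1+/+, and 5.91, 7.84 and 55.8 CPM in E4/Abca1+/-. After TBI they were 49.3, 118 and 304 CPM in E3/Abca1+/+, 68.1, 184 and 327 CPM in E3/Abca1+/-, 55.0, 70.4 and 544 CPM in E4/Abca1+/+, and 83.8, 247 and 645 CPM in E4/Abca1+/-. All injured mice were above all sham mice of their genotype, while the 4 injured groups overlapped one another over most of their range. The log2 fold changes were 4.46 (SE 0.35), 4.89 (SE 0.37), 4.60 (SE 0.61) and 4.31 (SE 0.56) in the same order, and 5.20 (SE 0.43) in E4/Abca1+/- without the second sham mouse (adjusted p at most 0.000121, edgeR). *Lyz2* has a close relative, *Lyz1*, beside it on chromosome 10. Their transcripts are identical at 96.0% of 1262 aligned bases, and 15.4% of the windows of 50 bases in *Lyz2* also occur in *Lyz1*, so reads may have been split between them. *Lyz1* held 278 counts in all TBI mice, which was 0.343% of the *Lyz2* counts, and 19 counts or 0.441% in the sham mice.

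*Ms4a7* was low in sham mice and higher in every injured mouse of the same genotype. Its lowest, median and highest values in sham mice were 0, 0.367 and 0.881 CPM in E3/Abca1+/+, 0.113, 0.167 and 0.390 CPM in E3/Abca1+/-, 0, 0.221 and 0.505 CPM in E4/Abca1+/+, and 0.245, 0.548 and 1.30 CPM in E4/Abca1+/-. After TBI they were 1.22, 2.70 and 7.19 CPM in E3/Abca1+/+, 1.25, 3.16 and 5.91 CPM in E3/Abca1+/-, 1.15, 1.65 and 7.73 CPM in E4/Abca1+/+, and 2.50, 6.38 and 12.1 CPM in E4/Abca1+/-. Within each genotype the TBI and sham mice did not overlap, and 24 of the 29 injured mice were above every sham mouse of any genotype. The log2 fold changes were 3.25 (SE 0.47), 3.96 (SE 0.43), 3.36 (SE 0.55) and 3.37 (SE 0.41) in that order, with adjusted p of at most 0.000544 (edgeR), and 3.71 (SE 0.42) in E4/Abca1+/- without the second sham mouse.

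*Ccr2* was read at a trace in sham mice and rose after TBI in all 4 genotypes. The sham medians were 0.425 CPM in E3/Abca1+/+, 0.339 CPM in E3/Abca1+/-, 0.215 CPM in E4/Abca1+/+ and 0.315 CPM in E4/Abca1+/-, and no sham mouse exceeded 0.610 CPM. The lowest, median and highest values after TBI were 0.186, 1.71 and 2.94 CPM in E3/Abca1+/+, 0.803, 1.40 and 3.20 CPM in E3/Abca1+/-, 0.354, 1.59 and 7.54 CPM in E4/Abca1+/+, and 0.992, 2.32 and 7.29 CPM in E4/Abca1+/-. Of the 29 injured mice, 27 were above every sham mouse, and the other two were 1 of E3/Abca1+/+ and 1 of E4/Abca1+/+. The log2 fold changes were 2.21 (SE 0.42), 2.37 (SE 0.43), 2.78 (SE 0.62) and 3.32 (SE 0.42) in the same order (adjusted p at most 0.0056, edgeR).

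**Figure D1:**
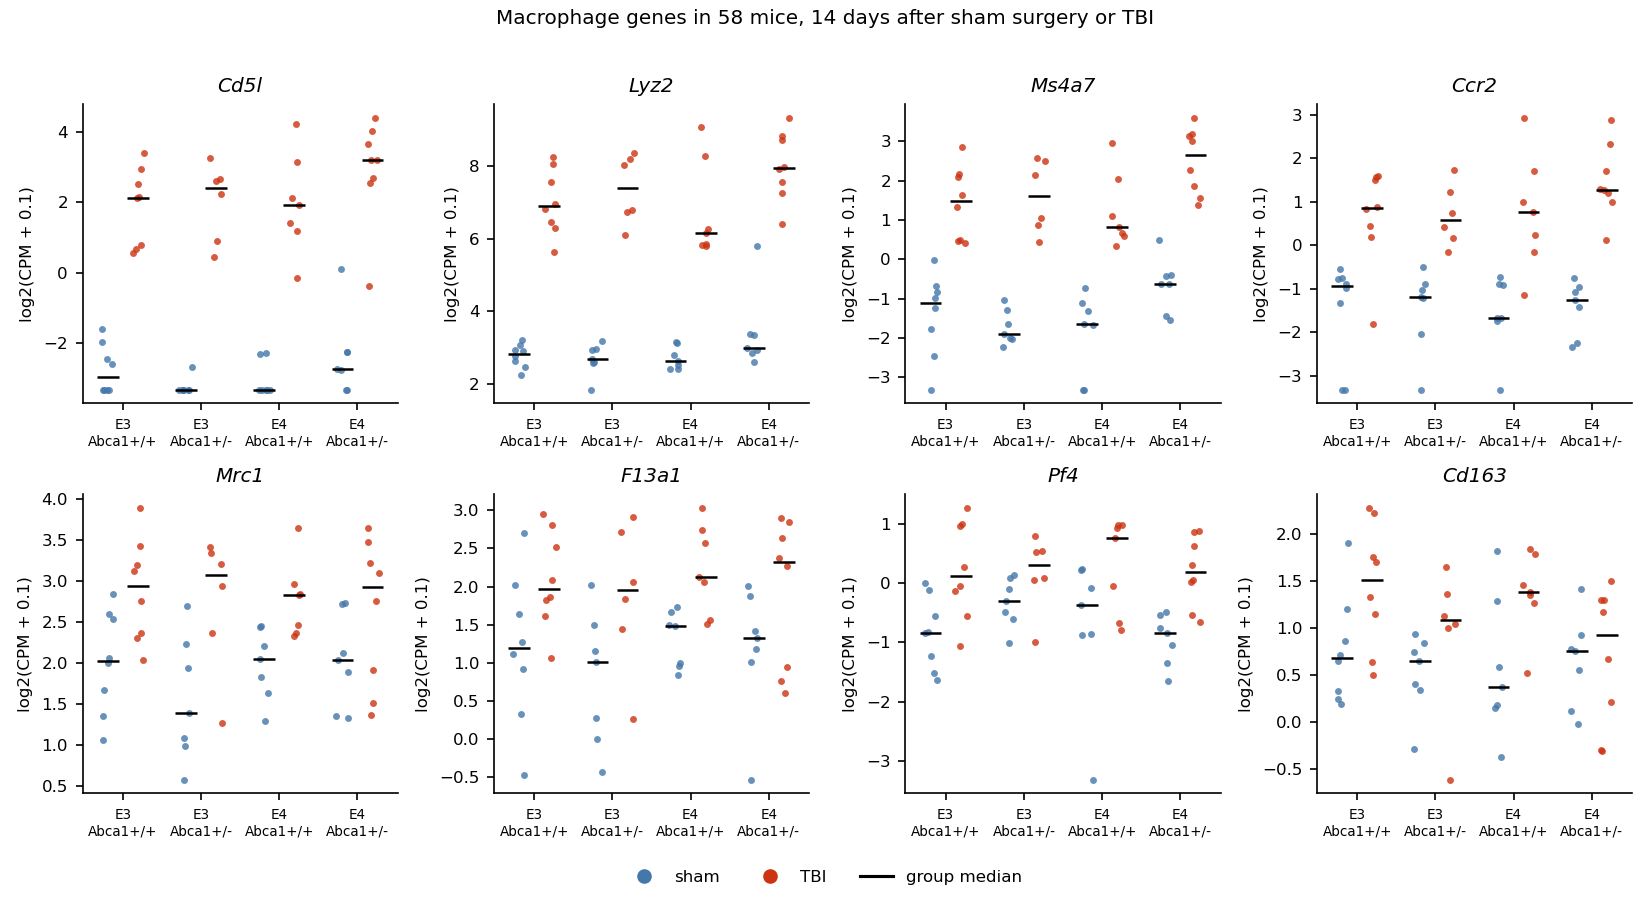
Level of each of the 8 genes in 58 mice, as log2(CPM + 0.1), by genotype, with sham mice in blue, TBI mice in red and bars at the group medians. *Cd5l*, *Lyz2*, *Ms4a7* and *Ccr2* (upper row) lie higher in nearly all injured mice, and the second E4/Abca1+/- sham mouse is the high blue point of *Lyz2* at 55.8 CPM. *Mrc1*, *F13a1*, *Pf4* and *Cd163* (lower row) overlap between sham and TBI in every genotype.

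The other 4 genes moved far less. *Mrc1* ranged from 1.39 to 7.08 CPM in the 29 sham mice (median 3.88) and from 2.31 to 14.8 CPM in the 29 TBI mice (median 7.07). Its group medians went from 3.97 to 7.65 CPM in E3/Abca1+/+, from 2.52 to 8.34 CPM in E3/Abca1+/-, from 4.04 to 6.98 CPM in E4/Abca1+/+ and from 3.99 to 7.56 CPM in E4/Abca1+/-, sham first. Sham and TBI mice overlapped in every genotype, and 14 of the 29 injured mice were above every sham mouse. *Mrc1* rose by 0.96 on the log2 scale in E3/Abca1+/+ (SE 0.28, adjusted p = 0.0145), by 1.18 in E3/Abca1+/- (SE 0.36, adjusted p = 0.024) and by 0.81 in E4/Abca1+/+ (SE 0.22, adjusted p = 0.0222, edgeR). In E4/Abca1+/- the difference was 0.73 (SE 0.33) with an adjusted p of 0.0944 from edgeR. The call in E3/Abca1+/- was lost without TBI mouse 3, 4 or 5 (adjusted p 0.0519 to 0.0586), and that in E4/Abca1+/+ without TBI mouse 3 (adjusted p = 0.0502) and when all 58 mice were fitted together (0.81, adjusted p = 0.118). In E4/Abca1+/- the test was passed in the fit of all mice (0.76, adjusted p = 0.0484, edgeR) and without TBI mouse 6 (0.85, adjusted p = 0.049) or 8 (0.86, adjusted p = 0.0356).

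*Pf4* ranged from 0 to 1.08 CPM in sham mice (median 0.556) and from 0.382 to 2.33 CPM in TBI mice (median 1.11). It rose by 1.02 on the log2 scale in E3/Abca1+/+ (SE 0.36, adjusted p = 0.0455) and by 1.34 in E4/Abca1+/- (SE 0.29, adjusted p = 0.00164, edgeR). The difference was 1.00 (SE 0.46, adjusted p = 0.17) in E4/Abca1+/+ and 0.56 (SE 0.29, adjusted p = 0.184) in E3/Abca1+/-. The call in E3/Abca1+/+ was lost in 10 of the 16 fits that left out 1 mouse, and that in E4/Abca1+/- in none of 15. Since platelets also carry *Pf4*, other platelet genes were read beside it, and only 4 of the 9 listed were measured. None of the 4 passed the test in any genotype, and their sum stayed between 6.34 and 12.5 CPM in all groups. The red cell genes, 3 of 5 being measured, passed in no genotype either. Whether platelets or red cells account for the level of *Pf4* was not tested.

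*F13a1* ranged from 0.590 to 6.40 CPM in sham mice (median 2.17) and from 1.10 to 8.11 CPM in TBI mice (median 4.14). It rose by 0.98 on the log2 scale in E4/Abca1+/+ (SE 0.25, adjusted p = 0.013, edgeR), where its median went from 2.69 to 4.25 CPM. When all 58 mice were fitted together this call was lost (0.99, SE 0.42, adjusted p = 0.105, edgeR). In the other genotypes the difference was of like size, from 0.83 to 1.11, and the adjusted p was 0.07 to 0.103. An antisense gene, *Gm30489*, shares 74 bases with the exons of *F13a1*, and the counting is not stated to use strand, so reads from these bases cannot be told apart. *Cd163* ranged from 0.674 to 3.66 CPM in sham mice (median 1.46) and from 0.552 to 4.77 CPM in TBI mice (median 2.36). Its log2 fold changes were 0.74 (SE 0.30) in E3/Abca1+/+, 0.51 (SE 0.29) in E3/Abca1+/-, 0.75 (SE 0.30) in E4/Abca1+/+ and 0.14 (SE 0.29) in E4/Abca1+/-, with adjusted p from 0.0851 to 0.754 (edgeR). Only 2 of the 29 injured mice were above every sham mouse.

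The first E3/Abca1+/- TBI mouse decided several of these calls. It had the lowest level of its group in all 8 genes, *Mrc1* (2.31 CPM), *F13a1* (1.10 CPM), *Pf4* (0.401 CPM) and *Cd163* (0.552 CPM) among them. Without it all 8 genes passed the test in E3/Abca1+/-, with log2 fold changes of 0.71 for *Cd163* (adjusted p = 0.024), 0.74 for *Pf4* (adjusted p = 0.0356) and 1.31 for *F13a1* (adjusted p = 0.0176, edgeR). How many of all genes passed in this fit was not recorded, so the gain in calls cannot be set beside that of other genes. Leaving out single mice also turned *Cd163* into a call in E3/Abca1+/+, without TBI mouse 1 or 4 or sham mouse 5, and in E4/Abca1+/+, without sham mouse 5.

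**Figure D2:**
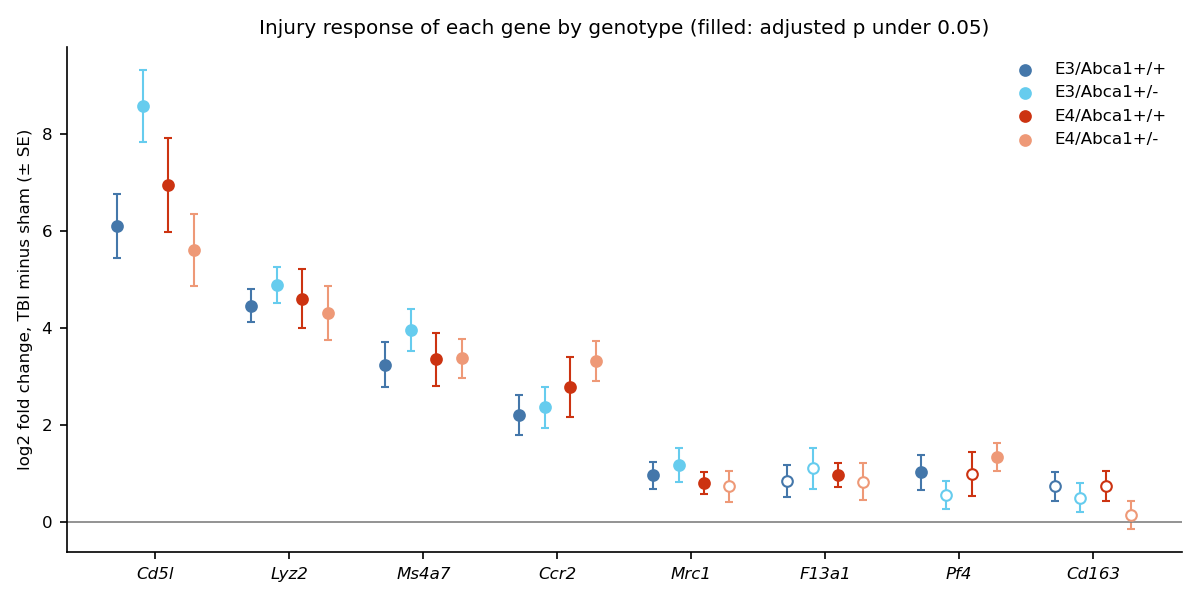
Log2 fold change of each gene, TBI minus sham, with its SE, in the 4 genotypes, with filled points where the adjusted p was under 0.05. *Cd5l*, *Lyz2*, *Ms4a7* and *Ccr2* lie at 2.21 or above and are filled in every genotype, whereas *Mrc1*, *F13a1*, *Pf4* and *Cd163* lie between 0.14 and 1.34.

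In E3/Abca1+/+ mice, 6 of the 8 genes passed the test and were higher after TBI, where 12.5% of all genes did so. There were 6 of 8 for E4/Abca1+/+ (9.08% of all genes), 5 of 8 for E3/Abca1+/- (13.7%) and 5 of 8 for E4/Abca1+/- (17.7%), and none of the 8 was lower in any genotype. Over the 8 genes the log2 fold changes had medians of 1.62, 1.89, 1.77 and 2.33 in this order, and that of all genes lay between -0.0043 and 0.0082. Every TBI mouse was above every sham mouse for 3 of the 8 genes among E3/Abca1+/+ mice (4.36% of all genes), 3 among E4/Abca1+/+ mice (3.76%), 4 among E3/Abca1+/- mice (6.57%) and 3 among E4/Abca1+/- mice (7.36%). A two-sided exact permutation test on log2(CPM + 1), run for each of the 8 genes in each genotype and adjusted over these 32 tests, passed in 22 of them, including all 16 of *Cd5l*, *Lyz2*, *Ms4a7* and *Ccr2* (largest adjusted p 0.00439). The permutation test was not run for other genes, so no share of all genes stands beside this count.

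Per kilobase of exon, *Lyz2* was the highest of the 8 genes in both conditions, with a median level of 5.44 CPM per kb in sham and 115 CPM per kb in TBI mice. Below it, the order of the sham medians was *Pf4* (0.772), *Mrc1* (0.610), *F13a1* (0.322), *Cd163* (0.268), *Ms4a7* (0.0675), *Ccr2* (0.0501) and *Cd5l* (0), all in CPM per kb. After TBI *Cd5l* was second with 2.73 CPM per kb, followed by *Pf4* (1.54), *Mrc1* (1.11), *Ms4a7* (0.673), *F13a1* (0.614), *Cd163* (0.433) and *Ccr2* (0.280). *Cd5l* thus went from the last place to the second, and *Pf4*, *Mrc1*, *F13a1* and *Cd163* kept their order relative to each other.

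Other macrophage genes, read from lists, moved with the 8. Of 11 further border macrophage genes in the table, 7 or 8 passed and were higher after TBI in each genotype and none was lower, with list medians of 0.77 to 0.99 on the log2 scale. *Stab1*, a scavenger receptor, rose by 1.16 to 1.39, and *Dab2*, an endocytic adaptor, by 0.77 to 0.97. *Maf*, a macrophage transcription factor, rose by 0.30 to 0.48, and *Slc40a1*, the iron exporter ferroportin, by 0.49 to 0.72. Genes picked after their values were seen mark the extremes of the list: *Siglec1*, the sialic acid receptor of inflammatory and border macrophages, rose by 3.22 to 4.22, whereas *Lyve1*, a receptor of perivascular macrophages and lymphatic vessels, had differences of -0.60 to 0.25 and passed in no genotype.

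Of 11 further genes of monocytes and recruited macrophages, 7 to 10 passed and were higher, with list medians of 1.60 to 1.98. Of the 4 with the highest levels, *Fn1*, fibronectin, rose by 0.47 to 0.54 and *Thbs1*, thrombospondin, by 0.95 to 1.29. *Itga4*, an integrin of white cells, had differences of 0.10 to 0.20 and passed in no genotype, and *Vcan*, versican, had 0.24 to 0.30 and passed in both Abca1+/- genotypes. *Plac8*, a monocyte gene picked after its values were seen, rose by 2.10 to 4.81 from a sham median of 0 CPM. Among 8 measured ligands, relatives and pathway partners of the 8 genes, 7 were higher in each genotype. *Ccl2*, the ligand of *Ccr2*, picked in the same way, rose by 3.74 to 5.20, from a sham median of 0.0563 CPM to a TBI median of 1.59 CPM. *Ms4a6c* and *Ms4a6d*, of the same gene family as *Ms4a7*, rose by 2.47 to 3.14 and by 1.88 to 2.51. *Hmox1*, the enzyme that breaks down haem taken up through *Cd163*, rose by 1.30 to 1.84, and *Mrc2*, a relative of *Mrc1*, by 0.50 in E4/Abca1+/+, with differences of 0.39 to 0.53 that did not pass in the other genotypes.

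Markers of other cells moved with the 8 genes, and their part in the results was not tested. All 10 homeostatic microglia genes, all 8 pan-myeloid genes and all 8 genes of activated microglia were higher after TBI in every genotype. Their list medians were 0.74 to 0.94, 1.56 to 2.03 and 3.19 to 3.68 on the log2 scale. *P2ry12*, a receptor of resting microglia, rose by 0.27 to 0.47, and among activated microglia genes *Gpnmb* rose by 3.95 to 4.83 and *Spp1* by 2.76 to 3.16. Of the neutrophil genes 3 of 10 were measured, and 2 or 3 of these were higher. Of the lymphocyte genes 2 of 10 were measured, and *Cd8a* was higher in every genotype. Of 3 measured dendritic cell genes none or 1 was higher and none or 1 lower, and 5 or 6 of 6 targets of the liver X receptor, *Abca1* among them, were higher. Meningeal and perivascular fibroblast genes, 8 in all, were higher in 1 to 5 cases per genotype, with medians of 0.50 to 0.62. Choroid plexus genes, such as *Ttr*, varied from mouse to mouse. Their sum was 12.8 to 29.4 CPM in E3/Abca1+/+ sham mice and 13.4 to 1362 CPM in E3/Abca1+/+ TBI mice. In the other 6 groups the lowest mouse had 11.5 to 15.8 CPM and the highest 1044 to 2060 CPM. In E3/Abca1+/+ mice 2 of the 6 choroid plexus genes were higher after TBI, with a list median of 1.79, and in the other genotypes none passed.

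**Figure D3:**
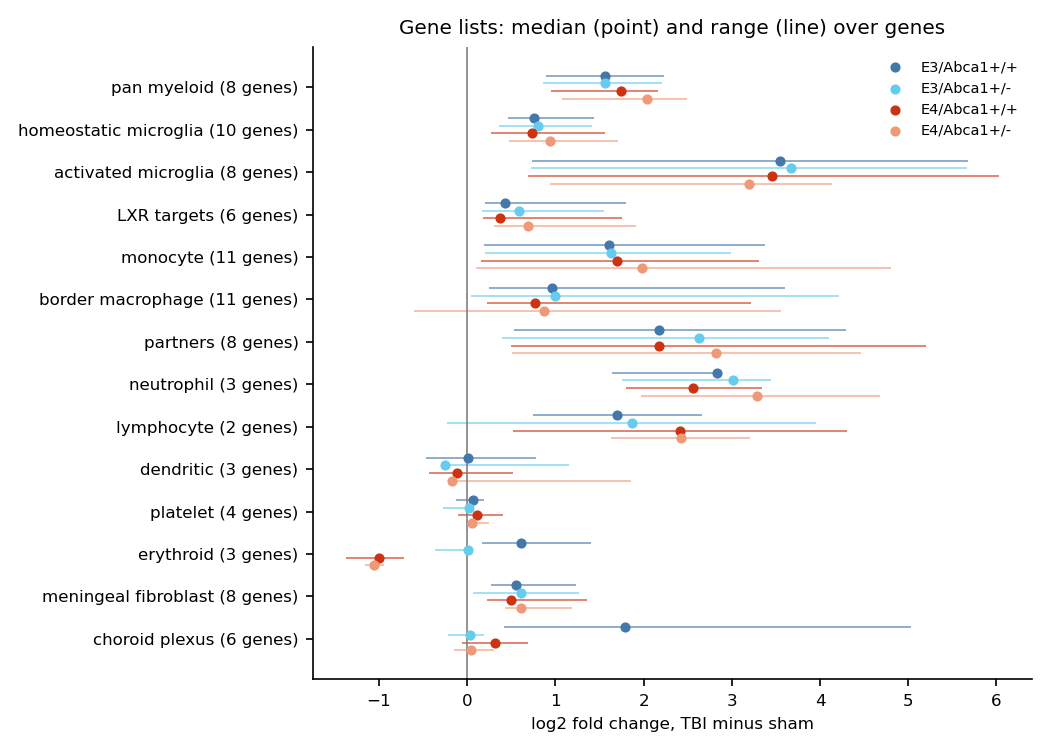
Median (point) and range over genes (line) of the log2 fold change, TBI minus sham, for lists of marker genes in the 4 genotypes, with the number of genes in the table. Activated microglia genes have medians of 3.19 to 3.68 and border macrophage genes of 0.77 to 0.99, and platelet genes lie at 0.02 to 0.12.

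Across the 29 injured mice the 8 genes varied in 2 sets, which were drawn after the values were seen. Levels were taken as log2(CPM + 1) with each group mean subtracted, and the correlations describe mice that share sex, surgery and library differences, so no test is attached. Among *Cd5l*, *Lyz2*, *Ms4a7* and *Ccr2* the 6 correlations ranged from 0.686 to 0.930 with a median of 0.827, the highest between *Lyz2* and *Ms4a7*. Among *Mrc1*, *F13a1*, *Cd163* and *Pf4* they ranged from 0.247 to 0.834 with a median of 0.576. *Mrc1*, *F13a1* and *Cd163* were close to one another (0.71 to 0.83), and *Pf4* was not close to any gene of the 8 (0.25 to 0.45). The highest value of *Pf4* was with *Lyz2* of the other set (0.450), beside 0.447 with *F13a1*, so the second set did not hold together as 4 genes. Between the sets the 16 correlations ranged from 0.188 to 0.723 with a median of 0.434, and *F13a1* was the member nearest to the first set (0.72 with *Lyz2*). Correlations with library depth were between -0.29 and 0.10.

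The genes most like each of the 8, out of all genes in these mice, differed between the sets. *Lyz2* was nearest to *Gpnmb*, *C3* and *Steap4* (r = 0.96 for each), *Cd5l* to *Gpnmb*, *Dhrs1* and *Fcrls* (0.91, 0.91 and 0.89), *Ms4a7* to *Rab7b*, *Lcp1* and *Rab32* (0.95, 0.95 and 0.94) and *Ccr2* to *Igfbp7*, *Gbp5* and *Rnh1* (0.93, 0.88 and 0.87). *Mrc1* was nearest to *Bmp6*, *Colec12* and *F13a1* (0.85, 0.84 and 0.83), *F13a1* to *Ccdc8*, *Thbs2* and *Hacd4* (0.89, 0.85 and 0.85), *Cd163* to *Mrc1*, *H6pd* and *Zic1* (0.80, 0.71 and 0.71) and *Pf4* to *Gypc*, *H2-Q1* and *A4galt* (0.78, 0.73 and 0.69). Against the summed level of the lists, *Lyz2* and *Ms4a7* had r = 0.98 and 0.94 with the activated microglia genes and 0.40 and 0.30 with the meningeal fibroblast genes. For *Mrc1* the order was the other way round, 0.46 with the activated microglia genes and 0.79 with the fibroblast genes, and *F13a1* had 0.68 and 0.69. With the further border macrophage genes the 8 had r = 0.89 (*Ms4a7*), 0.88 (*Lyz2*), 0.87 (*Cd5l*), 0.79 (*F13a1*), 0.72 (*Ccr2*), 0.69 (*Mrc1*), 0.50 (*Pf4*) and 0.46 (*Cd163*). This sum of CPM is mostly *Stab1*, *Maf*, *Dab2* and *Slc40a1* (means of 13.9 to 28.2 CPM over all mice). *Siglec1* (2.90 CPM), *Lyve1* (1.34 CPM) and the other genes of the list weigh little in it. Correlations with the choroid plexus genes were between -0.11 and 0.40 for all 8. Whether these other cells account for the levels of the 8 genes was not tested.

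**Figure D4:**
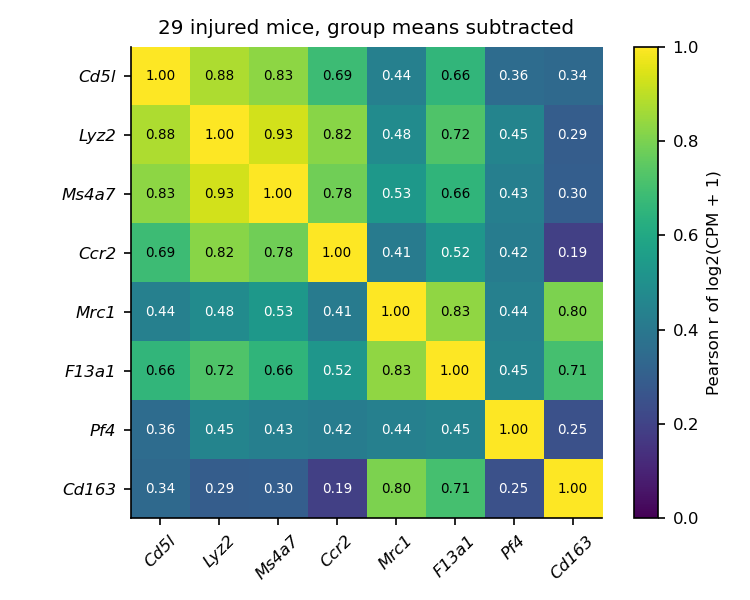
Pearson correlation of log2(CPM + 1) between the 8 genes over 29 injured mice, with group means subtracted. *Lyz2* and *Ms4a7* have the highest value, 0.93, the block of *Cd5l*, *Lyz2*, *Ms4a7* and *Ccr2* is at 0.69 or above, and *Mrc1*, *F13a1* and *Cd163* form a second block at 0.71 or above.

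The next question was whether *Abca1* copy number or *APOE* isoform changed these genes. None of the 8 passed the test between Abca1+/- and Abca1+/+ mice, in *APOE3* sham (2.2% of all genes passed), *APOE3* TBI (0.178%), *APOE4* sham (0.903%) or *APOE4* TBI mice (1.39%), by edgeR. At an unadjusted p under 0.05 there was 1 gene in *APOE3* sham mice (*Cd5l*), none in *APOE3* TBI mice, *Lyz2* and *Ms4a7* in *APOE4* sham mice, and *Ms4a7* in *APOE4* TBI mice. The same threshold was passed by between 1364 and 2765 of all 15171 genes in each of these comparisons. In *APOE4* sham mice the differences of *Lyz2* and *Ms4a7* were 1.16 and 1.26 (adjusted p = 0.249 and 0.225), and without the second E4/Abca1+/- sham mouse 0.27 (SE 0.16) and 0.92 (SE 0.45), with adjusted p of 0.489 and 0.399 (edgeR). DESeq2 called 0 in the first 3 and 1 in the last, but it gave an adjusted p for only 1, 5, 1 and 5 of the 8 genes. *Ms4a7* in injured *APOE4* mice had a median of 6.38 CPM with 1 copy of *Abca1* and 1.65 CPM with both, a log2 difference of 1.27 (SE 0.43, adjusted p = 0.131, edgeR). It passed when DESeq2 was used, as 716 of 12523 genes did, and when all 58 mice were fitted together, as 1359 of 15171 did. It also passed without the sixth E4/Abca1+/+ TBI mouse (adjusted p = 0.0297, edgeR). In the same comparison the difference was 0.87 (SE 0.54) for *Lyz2*, 0.87 (SE 0.60) for *Cd5l*, 0.51 (SE 0.49) for *Ccr2* and -0.57 (SE 0.29) for *Cd163*, with adjusted p from 0.313 to 0.627. All 8 pan-myeloid genes had differences above 0 there, 1 of them past the test, with a median of 0.65, and their part in the difference of *Ms4a7* was not tested. The Abca1+/- libraries were the deeper ones in these comparisons, and after random thinning of all libraries to the smallest one none of the 7 genes left in the test passed.

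Between *APOE4* and *APOE3* mice 1 of the 8 genes passed, *Ms4a7* in Abca1+/- sham mice, where 5.13% of all genes passed. Its lowest, median and highest levels were 0.113, 0.167 and 0.390 CPM in E3/Abca1+/- and 0.245, 0.548 and 1.30 CPM in E4/Abca1+/- sham mice, a log2 difference of 1.48 (SE 0.40, adjusted p = 0.0414, edgeR). The call rested on 33 counts in 7 mice against 91 counts in 7 mice. Without the second E4/Abca1+/- sham mouse the difference was 1.14 (adjusted p = 0.0904), and it was also lost without mouse 4, 6 or 7 of that group. When all 58 mice were fitted together it was 1.47 (adjusted p = 0.121), and after thinning 1.00 (adjusted p = 0.461, edgeR). Of the activated microglia genes 7 of 8 had differences above 0 in this comparison, 4 at an unadjusted p under 0.05 and none past the adjusted test, with a median of 0.93, and their part in the difference of *Ms4a7* was not tested. These list values include the second E4/Abca1+/- sham mouse, which had 62.2 CPM of *Gpnmb* against at most 7.42 CPM in the other sham mice. The list was not read without it. *Cd5l*, *Lyz2* and *Pf4* had an unadjusted p under 0.05 in the same comparison, with log2 differences of 4.04 (SE 1.34), 1.21 (SE 0.46) and -0.74 (SE 0.26), where 3526 of all genes passed this threshold. Those of *Cd5l* and *Lyz2* were 2.13 and 0.32 without the second sham mouse (edgeR, adjusted p = 0.266 and 0.337). None of the 8 passed by edgeR in Abca1+/+ sham (0.349% of all genes), Abca1+/+ TBI (0.211%) or Abca1+/- TBI mice (2.9%), and DESeq2 also called 0 in each. At an unadjusted p under 0.05 there was none in either Abca1+/+ comparison, against 1328 of all genes in sham and 1093 in TBI mice. In Abca1+/- TBI mice *Ccr2* and *Ms4a7* had an unadjusted p under 0.05, with differences of 0.91 (SE 0.39) and 0.90 (SE 0.41) and adjusted p of 0.224 and 0.251 (edgeR), and 2833 of all genes passed this threshold. All 8 pan-myeloid genes did so as well, 2 of them past the adjusted test, with a median of 0.62, and their part in these differences was not tested.

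Whether the injury response itself differed between genotypes was tested by interaction terms with injury. A further term, isoform by *Abca1*, used injured mice only, so it compares levels after TBI and not injury responses. None of the 8 passed, and none had an unadjusted p under 0.05, for isoform by injury in Abca1+/+ mice (0% of all genes passed) and in Abca1+/- mice (0%), *Abca1* by injury in *APOE3* (0%) and in *APOE4* mice (0%), or isoform by *Abca1* in TBI mice (0.00659%), by edgeR. DESeq2 also called none, but in the last of these it gave an adjusted p for only 1 of the 8. There *Ms4a7* had the largest value of the 8, 1.18 (SE 0.64, adjusted p = 0.537, edgeR). Of all genes 321, 962, 326, 735 and 1549 had an unadjusted p under 0.05 in the 5 tests. For *Lyz2* the interactions lay between -0.57 and 0.51 with SE of 0.57 to 0.85. Those of injury in E4/Abca1+/- mice include the second sham mouse and are given with it only. The response of *Lyz2* in E4/Abca1+/- was 4.31 with this mouse and 5.20 without it, beside 4.89 in E3/Abca1+/- and 4.60 in E4/Abca1+/+. Without it none of the 8 passed in either of these interactions (edgeR).

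Females and males were compared over all 58 mice with the group as a covariate. *Cd5l* and *Ms4a7* were lower in males, by 0.99 (SE 0.30, adjusted p = 0.026) and 0.64 (SE 0.22, adjusted p = 0.0479, edgeR) on the log2 scale, so 2 of the 8 passed where 10.1% of all genes did in either direction. All 8 differences were below 0. Without the second E4/Abca1+/- sham mouse those of *Cd5l* and *Ms4a7* were -1.15 (adjusted p = 0.00355) and -0.75 (adjusted p = 0.0131, edgeR). In injured mice the lowest, median and highest *Cd5l* levels were 3.71, 7.01 and 21.0 CPM in 14 females and 0.670, 2.16 and 16.0 CPM in 15 males. For *Ms4a7* they were 1.27, 4.26 and 12.1 CPM in females and 1.15, 1.99 and 8.68 CPM in males. *Lyz2* had 70.4, 262 and 645 CPM in females and 49.3, 83.8 and 457 CPM in males after TBI, with a difference over all mice of -0.63 (SE 0.25, adjusted p = 0.0873), or -0.87 (adjusted p = 0.00412, edgeR) without the second E4/Abca1+/- sham mouse, a male. The sexes did not overlap for *Lyz2* in E3/Abca1+/- TBI mice, with 259 to 327 CPM in 3 females and 68.1 to 110 CPM in 3 males. *Cd5l*, *Ms4a7* and *Pf4* did not overlap there either, and the other genes of the 8 did. How many of all genes separate 3 females from 3 males in this group was not counted, so nothing is read from it. In E4/Abca1+/- TBI mice the sexes overlapped for *Lyz2*, with medians of 247 CPM in 4 females and 305 CPM in 4 males.

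The test of whether the injury response differed by sex passed for none of the 8 and for 0% of all genes by edgeR, and DESeq2 also called 0. At an unadjusted p under 0.05 there were 2 genes, *Lyz2* with -1.63 (SE 0.47, adjusted p = 0.334) and *Ms4a7* with -1.13 (SE 0.49, adjusted p = 0.579, edgeR), males minus females, beside 1133 of all genes. Median levels went from 7.43 to 262 CPM in females and from 6.10 to 83.8 CPM in males for *Lyz2*, and from 0.303 to 4.26 CPM and from 0.245 to 1.99 CPM for *Ms4a7*, sham first. Without the second E4/Abca1+/- sham mouse these values were -1.01 and -0.78. The calls of *Cd5l* and *Ms4a7* between sexes were not made by DESeq2, which called 0 of the 8. Choroid plexus genes were lower in males in 6 of 6 cases, each at an unadjusted p under 0.05 and none past the adjusted test, with a median difference of -1.13, and 4 of 8 pan-myeloid genes were lower in males past the test, with a median of -0.23. Their part in the sex difference of *Cd5l* and *Ms4a7* was not tested.

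**Figure D5:**
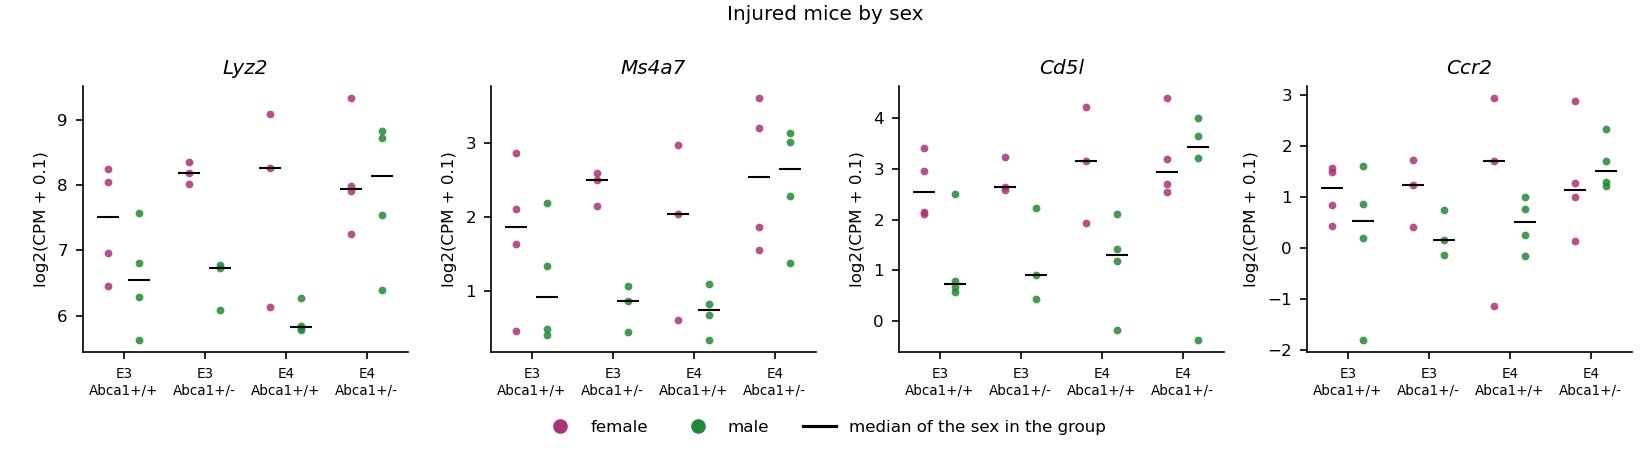
*Lyz2*, *Ms4a7*, *Cd5l* and *Ccr2* in the 29 injured mice as log2(CPM + 0.1), by genotype, with females in purple, males in green and bars at the median of each sex in the group. In E3/Abca1+/- mice the 3 females (259 to 327 CPM of *Lyz2*) lie above the 3 males (68.1 to 110 CPM), and in E4/Abca1+/- mice the sexes overlap. *Cd5l* and *Ms4a7* also separate in E3/Abca1+/- mice, *Ccr2* does not, and the share of all genes that do so was not counted.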

How the data were processed

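RNA from cortex and hippocampus of 58 mice was sequenced on an Illumina HiSeq instrument. The authors deposited 1 table of counts, whole reads per gene as given by featureCounts (Subread 1.5.0) on mm10 per the labels, with no normalization. Read length and use of strand are not given in the sources used here. The table held 15171 genes, of which 14999 IDs (98.9%) matched RefSeq. Symbols that a spreadsheet had turned into dates (23) were renamed by ID, and 2 blank lines were dropped. Columns with no sample numbered 0. Groups came from the sample titles, and p-values measure the spread between mice.

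The counts were tested with edgeR 4.0.16 (quasi-likelihood F test, limma 3.58.1, R 4.3.3) with TMM factors (0.954 to 1.038), in a separate fit of the groups compared, or of 4 groups for interactions between isoform, *Abca1* and injury. Sex was tested over all 58 mice with the group as a covariate. Low genes were to be filtered by filterByExpr in each fit. Since this dropped several of the 8 genes in the shallow libraries, the filter was run once over the 8 groups and removed 0 genes, a choice made after the data were seen. p-values were adjusted by Benjamini-Hochberg over all genes and called under 0.05. The two-sided exact permutation tests, intervals and correlations used Python 3.11.15 with numpy 2.4.6, scipy 1.17.1 and pandas 2.3.3, and figures matplotlib 3.10.9. Levels are CPM of the total counts times the TMM factors, while pooled ratios use total counts alone, and 3 counts were taken as the floor. Total counts were 4421308 to 37877346 per mouse. Intervals cover counting error only. The fitting code was tested on simulated data. Alternatives were DESeq2 1.42.0, its size factors, filters, a sex covariate, robust dispersion, 1 fit of all mice, thinning to the lowest total and leaving out mice.

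The 8 genes and the lists were chosen with earlier results of these data known. Named were the 8 genes, *Abca1*, at most 4 genes of a list by mean level, and the 3 genes most like each of the 8, with others said to be picked after their values were seen.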

Additional observations from a re-analysis of the deposited data

Results flagged for a closer look

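In each of the 8 groups the highest and the lowest mouse were compared with the others for each of the 8 genes, by Dixon's gap over range. Of 64 such groups 5 held a mouse far from the others, and chance gives about 1 in 20. The second E4/Abca1+/- sham mouse was far above its group in *Lyz2* (55.8 CPM) and in *Cd5l* (0.977 CPM). The sixth E3/Abca1+/- sham mouse was apart in *Cd5l* with 0.0563 CPM, which was 1 count in a group otherwise at 0. The sixth E4/Abca1+/- TBI mouse was low in *Cd5l* (0.670 CPM), and the first E3/Abca1+/- TBI mouse was low in *Cd163* (0.552 CPM).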

How the results depend on the processing

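No difference after TBI, and no other difference with an unadjusted p under 0.05, reversed its direction in any fit that tested it. The direction of the remaining differences, among them the interactions of genotype with injury, was not compared. The calls of *Cd5l*, *Lyz2*, *Ms4a7* and *Ccr2* after TBI held in every alternative that tested them and without any single mouse. Not every alternative tested them. The filter first planned, filterByExpr per fit, dropped *Cd5l*, *Ms4a7* and *Ccr2* in E4/Abca1+/+ and *Ccr2* in E3/Abca1+/+. The filter of 1 CPM in 6 mice dropped *Ccr2* in E4/Abca1+/+ and in E3/Abca1+/-. Of the counts of called genes, that in E4/Abca1+/+ TBI against sham was 3 with filterByExpr run per fit, which left 4 of the 8 genes in the test, and 4 in 1 fit of all mice, which tested all 8 and lost *Mrc1* and *F13a1*. For *Abca1* in *APOE4* TBI mice, where edgeR called 0, DESeq2 called 1 and 1 fit of all mice called 1. Of all genes these 2 called 716 of 12523 and 1359 of 15171, against 211 of 15171 in the main fit. For isoform in Abca1+/- sham mice, where edgeR called 1, the count was 0 with DESeq2, 0 with a filter of 1 CPM in 6 mice, 0 in 1 fit of all mice, 0 after thinning and 0 with filterByExpr per fit. DESeq2 and these filters tested 3 to 5 of the 8 genes there, without *Ms4a7*, the gene called, so their 0 says nothing about it. Between sexes, where edgeR called 2, DESeq2 called 0, robust dispersion 1 and thinning 4. Of all genes these called 1704 of 15166, 1505 of 15171 and 1168 of 14043. The *Cd5l* ratio in E4/Abca1+/- was 197 without the second sham mouse.

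Leaving out 1 mouse gave 5 to 8 called genes in E3/Abca1+/+ after TBI, 5 to 7 in E4/Abca1+/+, 4 to 8 in E3/Abca1+/- and 5 to 7 in E4/Abca1+/-. It gave 0 to 1 for *Abca1* in *APOE4* TBI mice, 0 to 2 for isoform in Abca1+/- sham mice and 0 for isoform in Abca1+/- TBI mice. For isoform in Abca1+/- sham mice only the 7 E4/Abca1+/- mice were left out in turn, and the E3/Abca1+/- mice were not. Without the second E4/Abca1+/- sham mouse the count between sexes was 3. The cause of these changes was not tested, apart from genes that left the test. How many of all genes passed in the fits that left out a mouse was not recorded. No paired analysis was possible because the labels give no replicate numbers shared between groups. The sex covariate and the single fit were not run for the tests of sex. Genes under about 1 CPM, such as *Ccr2* and *Ms4a7* in sham mice, rest on few counts per mouse.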
